A study of Homo sapiens with 6 samples.

Results

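A stretch of 5 Mb on the long arm of chromosome 15, named here after the band 15q15, was examined for ubiquitylated and total H2A.Z. The cells were HEK293T, a long-established line derived from human embryonic kidney. Peaks of both deposited lists were merged where they overlapped or touched, and the merged regions with a midpoint from 40 to 45 Mb of chromosome 15 (hg19) were taken, which gave 208 of 198179 regions. The stretch was chosen by the authors' differential calls, since few of them there pointed to ubiquitylated H2A.Z. Counts of calls by direction therefore describe that choice and carry no test, and the peak lists come from the same pull-downs.

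The cells carried H2A.Z-1 with Flag-BirA at its C-terminus and ubiquitin with an AviTag at its N-terminus, from plasmids at a ratio of 3 to 1. They were collected 48 hours after transfection, and MNase was applied for 30 minutes. All 6 samples had this background: 2 streptavidin pull-downs (ubiquitylated H2A.Z), 2 Flag pull-downs (total H2A.Z) and 2 H3 immunoprecipitates, which enter no comparison here. The tagged histone is expressed from a plasmid, so nucleosomes whose H2A.Z is all untagged are not the target of either H2A.Z pull-down. No value per sample was analysed here: each list holds 1 value per peak or region over both replicates, the depth behind it is unknown, and the spread between samples enters solely through the IDR and FDR deposited by the authors.

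H2A.Z replaces H2A in nucleosomes at promoters, enhancers and other regulatory sites, and its C-terminal tail can carry a single ubiquitin, which is added mainly by ring finger ligases of Polycomb repressive complexes. Ubiquitylated H2A.Z is best known from the inactive X chromosome and from silent genes. BirA joins biotin to the AviTag of a nearby ubiquitin, so streptavidin recovers nucleosomes with labelled ubiquitin and the Flag antibody recovers those with the tagged histone, modified or not. The band 15q15 is gene-rich and carries, among others, BUB1B of the spindle checkpoint and CAPN3, a protease of muscle. Their position relative to the regions was not analysed here, and no sequence of the regions was used.

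The stretch was not poor in ubiquitylated H2A.Z peaks for its part of the chromosome, but it was richer in total H2A.Z peaks. It held 104 peaks of ubiquitylated and 159 of total H2A.Z, a ratio of 0.654, against 0.999 over the whole lists. Of the 9 windows of 5 Mb from 20 to 65 Mb it had the most ubiquitylated peaks as well as the most total peaks. Among 568 windows of 5 Mb with at least 50 regions the ratio was the 20th lowest, with a median of 0.931. Regions with peaks of total H2A.Z alone made up 107 of the 208 (51.4%, against 29.2% of all merged regions), regions with ubiquitylated peaks alone 50 (24.0% against 28.9%) and regions with both 51 (24.5% against 41.9%). The share with total peaks alone was the 6th highest of those windows. Counted in bases, the 2 lists covered 50.4 kb and 74.7 kb of the stretch and shared 26.0 kb, a Jaccard index of 0.262, where the whole lists gave 0.418.

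More of the stretch was differential than of the genome, and nearly all of it in 1 direction. Of the 208 regions, 76 were called in the authors' deposited table at an FDR of at most 0.05 (36.5%, against 21.5% of all merged regions). Higher in total H2A.Z were 69 regions (33.2%, against 12.1%) and higher in ubiquitylated H2A.Z 7 (3.37%, against 9.39%). The share of calls higher in ubiquitylated H2A.Z, 9.21%, was the 4th lowest of 515 windows with at least 20 calls. The share of regions higher in total H2A.Z was the 2nd highest of 568 windows, whereas the share higher in ubiquitylated H2A.Z was the 39th lowest. By rank alone, the stretch stood further out in its regions higher in total H2A.Z than in its lack of regions higher in ubiquitylated H2A.Z. Both shares come from the calls that chose the stretch, and a low share can fall no further than 0. The ranks therefore do not compare the size of the 2 departures. Flag antibody and streptavidin recover chromatin by different chemistry, so the effect of the reagent and that of ubiquitylation cannot be told apart.

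**Figure D1:**
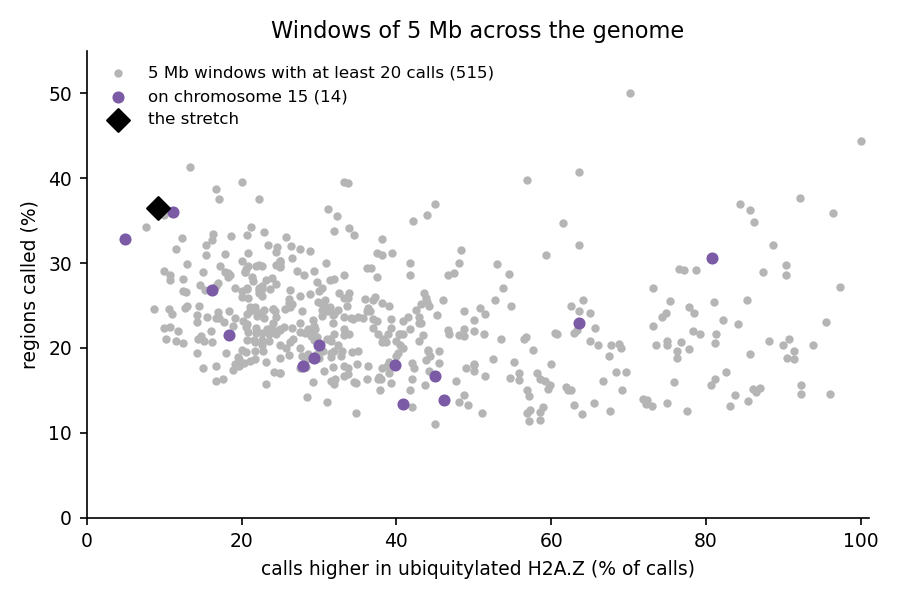
Each point is a window of 5 Mb with at least 20 calls, with the percent of its calls that were higher in ubiquitylated H2A.Z on the x axis and the percent of its regions called on the y axis. The stretch (diamond) lies at 9.21% and 36.5%, at the left and upper side of the 515 windows.

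Windows with about as many regions gave a closer comparison. Among 150 other windows holding 150 to 300 regions, the median share called was 22.2% (quartiles 18.9 and 26.3%, highest 39.8%). In those windows, the highest share of regions higher in total H2A.Z was 29.0%, below the 33.2% of the stretch. Some windows with fewer regions came closer or exceeded it. The share was 31.1% from 55 to 60 Mb and 32.0% from 60 to 65 Mb of chromosome 15, and 35.8% from 85 to 90 Mb of chromosome 4. The window from 45 to 50 Mb of chromosome 13 had a like share of calls higher in ubiquitylated H2A.Z (4 of 46, 8.70%) and a like ratio of peaks, 0.641. It differed from the stretch in the share called, 24.6% of its 187 regions, and in the regions with both kinds of peak, 35.8%. The window from 40 to 45 Mb of chromosome 6, with 13 of 126 calls higher in ubiquitylated H2A.Z (10.3%), had 21.0% of its 600 regions called. Other windows shared both traits with the stretch. The lowest shares of calls towards ubiquitylated H2A.Z were those of 55 to 60 Mb of chromosome 15 (1 of 20, 5.00%) and of 95 to 100 Mb of chromosome 4 (2 of 26, 7.69%), with 32.8% of 61 and 34.2% of 76 regions called. A low share towards ubiquitylated H2A.Z together with many calls was therefore not particular to the stretch.

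The excess of calls lay in the regions with total H2A.Z peaks, alone or with the other form. Of the 107 regions with total peaks alone, 58 were higher in total H2A.Z (54.2%, against 30.5% of such regions over the genome) and 49 were not called. None was higher in ubiquitylated H2A.Z (0.0831% of such regions over the genome). Of the 51 regions with both kinds of peak, 10 were higher in total H2A.Z (19.6%, against 7.52%) and 1 in ubiquitylated H2A.Z (1.96%, against 5.97%). Regions with ubiquitylated peaks alone went the other way. Of these 50, 6 were higher in ubiquitylated H2A.Z (12.0%, against 23.8%), 43 were not called, and 1 was higher in total H2A.Z (2.00%, against 0.127%). That 1 region, chr15:41851897-41852397, has a ubiquitylated peak with an IDR of 0.0377, in the upper part of the range of that list, which ends at 0.05. In the authors' deposited table its log2 fold change was -0.66 with an FDR of 0.005.

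**Figure D2:**
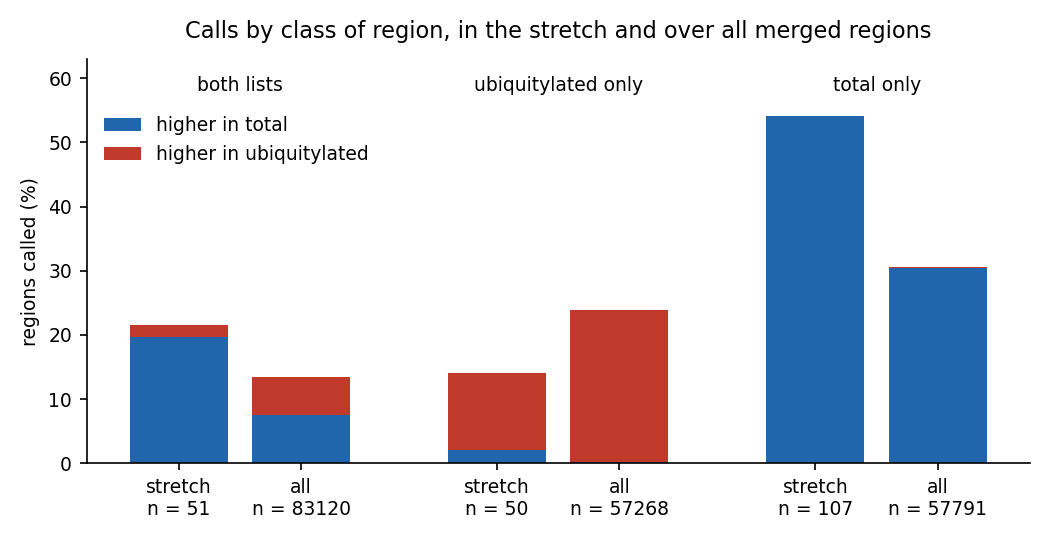
Bars give the percent of regions called higher in total (blue) or ubiquitylated H2A.Z (red) for regions with peaks of both lists, of the ubiquitylated list alone and of the total list alone, in the stretch and over all merged regions. Regions with total peaks alone were called in 54.2% of cases in the stretch against 30.6% over all regions, and regions with ubiquitylated peaks alone in 14.0% against 23.9%.

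The 7 regions higher in ubiquitylated H2A.Z lay among regions of the opposite direction, and all but 1 pair of them lay far from one another. In the authors' deposited table the largest change was that of chr15:40366936-40367479 (log2 fold change 0.94, FDR 0.00023). Next in the authors' deposited table were chr15:43518688-43519355 (0.87, FDR 0.00068) and chr15:41443680-41444204 (0.83, FDR 0.0024). For chr15:40974243-40974980 the authors' deposited table gave a log2 fold change of 0.83 with an FDR of 0.00033. All 4 hold a ubiquitylated peak and no total peak. A pair 9070 bp apart, chr15:41217721-41219298 and chr15:41228369-41228952, had log2 fold changes of 0.64 (FDR 0.00014) and 0.68 (FDR 0.0023) in the authors' deposited table. The first of the pair is 1578 bp wide, the widest of the 7 and of all 50 regions with ubiquitylated peaks alone. The 7th region, chr15:41787951-41788582, is the one that also holds a total H2A.Z peak, with an IDR of 0.0344 against 0.000129 for its ubiquitylated peak. The authors' deposited table gave it a log2 fold change of 0.62 (FDR 0.0084), the smallest of the 7. All 7 passed an FDR of 0.01 (3.37% of members, against 5.16% of all merged regions), and none reached a log2 fold change of 1 (against 1.47%). Their widths ran from 525 to 1578 bp, above the median of 308 bp of the 43 regions with ubiquitylated peaks alone that were not called. A difference in this direction was general. Over the genome, regions with ubiquitylated peaks alone had medians of 415 bp when higher in ubiquitylated H2A.Z and 250 bp when not called.

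The regions higher in total H2A.Z were found along the whole stretch, and some of them changed more than any of the 7. The authors' deposited table gave them a median log2 fold change of -0.85 (quartiles -1.02 and -0.68, from -1.46 to -0.38), against -0.76 over the 23960 such regions of the genome. A change of at least 2-fold in the authors' deposited table was seen in 20 of the 69 (29.0%, against 19.8% of the 23960), that is in 9.62% of the 208 regions where 2.39% of all merged regions passed. At an FDR under 0.01 in the authors' deposited table, 44 of the 69 remained (63.8%, against 58.6%), or 21.2% of members against 7.09% of all merged regions. The lowest FDR in the authors' deposited table, 8.1e-07, was that of chr15:42565876-42566410, whose log2 fold change was -1.46. It is 535 bp wide and lies 65.4 kb from the nearest other merged region. Next by FDR in the authors' deposited table came chr15:40731992-40732707 (-1.02, FDR 2e-06) and chr15:41099283-41099597 (-1.41, FDR 3.7e-06). The next 3 in the authors' deposited table were chr15:43425553-43426338 (-0.94, FDR 4.7e-06), chr15:43885815-43886613 (-0.98, FDR 5.3e-06) and chr15:42840381-42840932 (-1.02, FDR 7.2e-06). Each of these 6 regions holds a single total H2A.Z peak and no ubiquitylated peak, and they are spread over most of the stretch. The other 4 of the 10 lowest FDR were chr15:40886493-40886904, chr15:44828594-44829097, chr15:44487704-44487970 and chr15:41150108-41150334, with log2 fold changes from -1.23 to -1.06 and FDR values up to 6e-05 in the authors' deposited table. The last of these was tied in FDR with chr15:43213471-43213952, for which the authors' deposited table gave a log2 fold change of -0.95.

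Among the called regions higher in total H2A.Z, large changes were found in narrow regions and small ones in wide regions. Regions that were not called have no deposited fold change. Only regions that passed the FDR limit thus enter, and the part of that limit in this relation was not tested. The 5 largest changes included 3 regions under 200 bp, chr15:44956070-44956263 (log2 fold change -1.40), chr15:40558962-40559118 (-1.32) and chr15:40437608-40437767 (-1.31) in the authors' deposited table. At the other end, the 10 regions with both kinds of peak had a median of -0.49 in the authors' deposited table and a median width of 917 bp, against -0.89 and 330.5 bp for the 58 with total peaks alone. Across the 69 regions, the Spearman correlation of width with the size of the change was -0.59, and across the 23960 regions of the genome it was -0.58. These points share their libraries, and the 2 values lie close together. The widest called region, chr15:41055403-41057295 (1893 bp, both kinds of peak), was called by the authors' deposited table at a log2 fold change of -0.42 and an FDR of 0.0073. The pair chr15:40649893-40650321 and chr15:40650504-40651308, 182 bp apart and both with peaks of both forms, had log2 fold changes of -0.58 and -0.63 in the authors' deposited table.

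**Figure D3:**
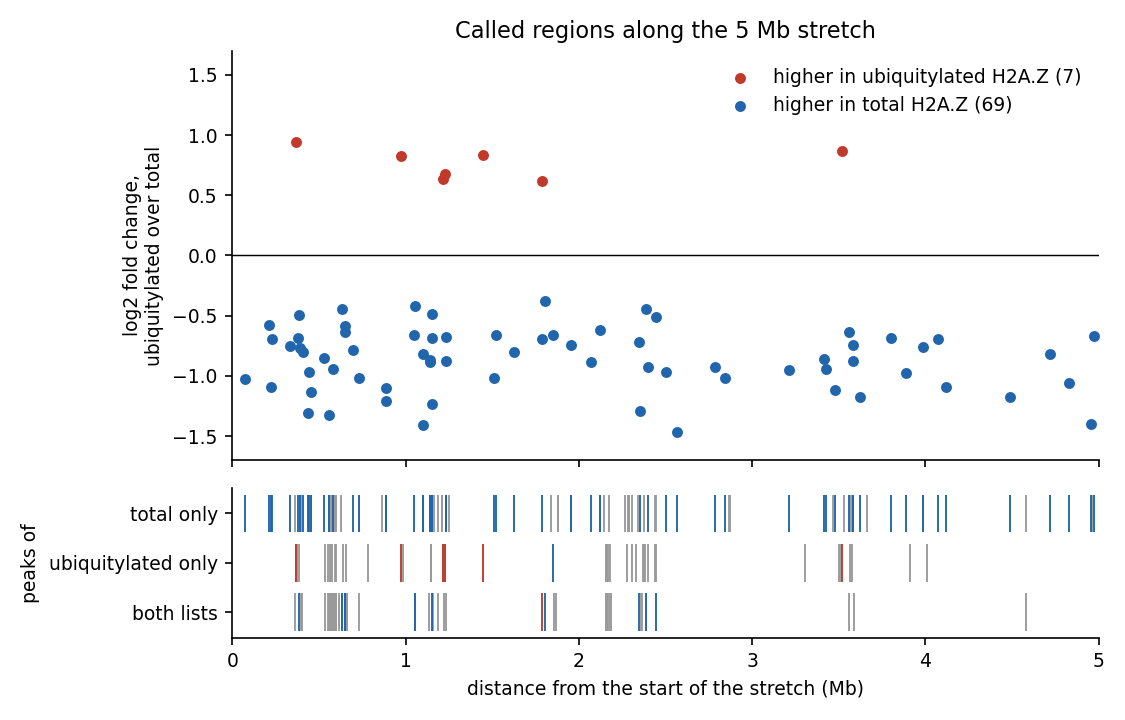
The upper panel plots the authors' log2 fold change of the 76 called regions (1 point each) against the distance from the start of the stretch in Mb, and the lower panel marks all 208 regions by the lists their peaks come from, grey where not called. The 7 points above 0 lie between 0.62 and 0.94, and the 69 below it between -1.46 and -0.38.

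Peaks, and with them the number of calls, were fewer at the end of the stretch than at its start, and most so the ubiquitylated peaks. The first Mb held 75 regions and the last 11. From 40 to 41 Mb there were 40 ubiquitylated and 59 total H2A.Z peaks, from 42 to 43 Mb 29 and 35, and from 44 to 45 Mb 2 and 10. Regions higher in total H2A.Z numbered 22, 18, 11, 11 and 7 in the successive Mb, and regions higher in ubiquitylated H2A.Z 2, 4, 0, 1 and 0. The share of regions called did not fall with these numbers. It was 32.0, 48.9, 21.6, 46.2 and 63.6% in the successive Mb, highest in the last, where 7 of 11 regions were called. From 42.5 to 43.0 Mb all 6 regions had total peaks alone, and 4 of them were called. The longest spans with no merged region, 368 kb (chr15:44119405-44487703) and 340 kb (chr15:42873743-43213470), lay past 42.5 Mb. The median spacing of neighbours over the whole stretch was 3.67 kb.

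Calls in 1 direction followed one another in long series. The longest inside the stretch held 18 regions higher in total H2A.Z over chr15:41804722-43477805 (1.67 Mb, 66 merged regions spanned), and the authors' deposited table put their median change at -0.91 (log2). A series of 17 ran over chr15:40380365-40886904 (0.507 Mb, 63 merged regions). The last series crossed the end of the stretch, with 14 regions inside and 7 beyond it, over chr15:43559046-45492974. The nearest called neighbour had the same direction for 65 of the 69 regions higher in total H2A.Z (94.2%, against 79.4% over the genome). It did so for 1 of the 7 regions higher in ubiquitylated H2A.Z (14.3%, against 71.6%). With 1 direction making up most calls, long series in that direction follow from the counts. So do a high share for the 69 regions and a low share for the 7. The closest regions of opposite direction were chr15:41785391-41785934 (higher in total) and chr15:41787951-41788582 (higher in ubiquitylated), 2.02 kb apart. The next closest were chr15:41228369-41228952 (higher in ubiquitylated) and chr15:41233364-41234015 (higher in total), 4.41 kb apart.

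The limits of the stretch were drawn at whole megabases and not from a change in the data. The number of regions did change at the first limit. From 39 to 40 Mb there were 15 regions, with 10 ubiquitylated and 9 total H2A.Z peaks. From 40 to 41 Mb there were 75, with 40 and 59 peaks. The first region inside, chr15:40074843-40074998, was higher in total H2A.Z (log2 fold change -1.02, FDR 0.01 in the authors' deposited table). The last region before it, chr15:39874383-39875005, was higher in ubiquitylated H2A.Z (0.80, FDR 0.00024 in the authors' deposited table). At the other end the last region inside, chr15:44975097-44975626, and the first beyond, chr15:45003391-45003585, were both higher in total H2A.Z (-0.67 and -1.05 in the authors' deposited table). For the regions nearest to each limit, the direction thus differed across the first limit and was the same across the second. The difference at the first limit rests on a single region outside it. Of the 7 calls from 35 to 40 Mb, 5 were higher in total H2A.Z, the main direction inside the stretch too. A general change of direction at the first limit was therefore not seen.

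In the stretch, isolated regions were called far more often than clustered ones. Neighbours up to 10 kb apart were joined into clusters, a rule set after the data were seen. Of the 41 regions with no neighbour within 10 kb, 28 were called (68.3%, against 22.0% of the 24962 such regions of the genome), 25 of them higher in total H2A.Z. This was the highest share among 536 windows of 5 Mb with at least 20 such regions, where the median was 21.2%. Total peaks alone made up 73.2% of the isolated regions and 34.4% of the regions in clusters of 10 or more. The part of this mix of classes in the called shares was not tested. Isolated regions with total peaks alone were called in 24 of 30 cases (80.0%, against 30.4%), and their median width was 339 bp, where the genome gave 240 bp. The share called was 40.3% in clusters of 2 to 4 regions (against 26.5%), 33.3% in clusters of 5 to 9 (against 22.4%) and 20.0% in clusters of 10 or more (18 of 90, against 19.0%). In its large clusters the stretch was therefore close to the genome in the share called, though 15 of those 18 calls were higher in total H2A.Z, where 9011 of 19435 were over the genome. On the rest of chromosome 15 up to 65 Mb, isolated regions were called in 31.0% of 239 cases, less than in the stretch but above the genome.

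**Figure D4:**
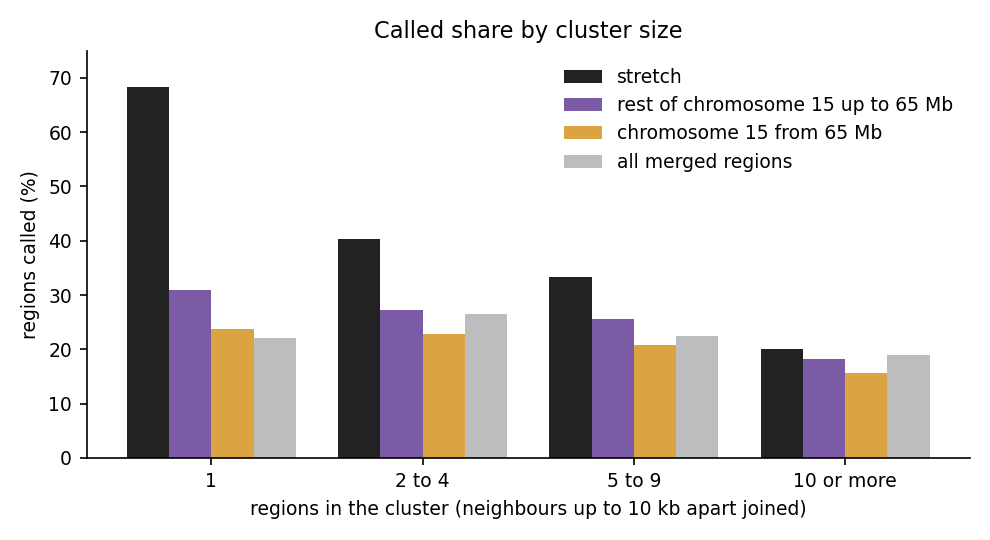
Bars give the percent of regions called, in either direction, by the number of regions in their cluster, for the stretch, the rest of chromosome 15 up to 65 Mb, chromosome 15 from 65 Mb and all merged regions. The stretch falls from 68.3% for isolated regions to 20.0% in clusters of 10 or more, while all merged regions stay between 19.0 and 26.5%.

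The largest clusters held peaks of both forms and differed in their share of calls. The cluster at chr15:40549162-40601477 (52.3 kb) had 28 regions, of which 11 held both kinds of peak, 6 ubiquitylated and 11 total peaks alone. Of these 28, 26 were not called and 2 were higher in total H2A.Z. At chr15:42147490-42187639 (40.1 kb) lay 14 regions without a call, among them the widest of the stretch, chr15:42157893-42160036 (2144 bp). The longest series of uncalled regions, 23 of them over chr15:42147490-42342968, began there. The cluster chr15:42360730-42397599 held 12 regions and 2 calls, both higher in total H2A.Z. Others held more calls. The cluster chr15:40361486-40408229 (46.7 kb) had 14 regions and 5 calls (35.7%), 1 of them towards ubiquitylated H2A.Z and 4 towards total. In addition, 5 of 11 regions in the cluster chr15:41136725-41165901 were higher in total H2A.Z. The cluster chr15:41207977-41234651, also of 11 regions, was mixed, with 2 calls in each direction within 26.7 kb. It holds the peak of lowest IDR of the total list in the stretch, chr15:41220696-41222430 (1.59e-05), in a region that was not called.

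Peaks in the stretch repeated less well between replicates than the lists as a whole, by the authors' IDR. The median IDR was 0.00529 for ubiquitylated peaks, against 0.00137 over that list, and 0.00576 for total peaks, against 0.00335. Peaks under an IDR of 0.01 made up 70.2% of the ubiquitylated (83.1% of that list) and 61.0% of the total peaks (74.1% of that list). The ubiquitylated peaks of lowest IDR were chr15:43560735-43560947 (5.73e-06), chr15:42157913-42159870 (1.91e-05) and chr15:41147931-41148357 (2.89e-05), and none of their regions was called. After the one named above, the total H2A.Z peaks of lowest IDR were chr15:43580347-43580659 (9.75e-05) and chr15:44487704-44487970 (0.000143), and both were regions higher in total H2A.Z. The part of these IDR values in the calls was not tested.

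Members were also wider than merged regions elsewhere. Their median width was 346 bp (quartiles 259 and 566.5 bp, from 140 to 2144 bp), against 313 bp over all regions. The difference was present in each class, with medians of 596 against 425 bp for regions with both kinds of peak, 315 against 251 bp for total peaks alone and 341 against 276 bp for ubiquitylated peaks alone. In 47 regions that hold exactly 1 peak of each form, the ubiquitylated peak had a median of 364 bp and the total peak 525 bp, against 338 and 355 bp over all such regions. The total peak was the wider in all 8 of these that were higher in total H2A.Z, as in 97.4% of the 5715 such regions of the genome. The 38 not called were split evenly, 19 and 19, where over the genome the ubiquitylated peak was the wider in 45.2% and the total peak in 53.9%. Neither split stood far from the genome. Over all 47, the total H2A.Z peak exceeded its genome median by more than the ubiquitylated peak did.

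The stretch belongs to a part of chromosome 15 with few peaks of either form. The 9 windows of 5 Mb from 20 to 65 Mb held 38 to 208 regions, of which the stretch was the richest, and the 8 windows from 65 Mb on held 444 to 1016. The step was abrupt: 13 regions from 64 to 65 Mb were followed by 112 from 65 to 66 Mb. It was seen for both pull-downs, with 7 and 68 ubiquitylated and 9 and 86 total H2A.Z peaks in these intervals. The 591 regions of the sparse part without the stretch were compared by the lowest IDR of each form in each region. Its median was 0.00431 for ubiquitylated and 0.00658 for total peaks, near the 0.00458 and 0.00574 of the stretch. The 5302 regions from 65 Mb on had 0.00104 and 0.00284. The higher IDR was thus shared with the sparse part. In that part without the stretch 28.3% of regions were called and 30.5% of the calls were higher in ubiquitylated H2A.Z. From 65 Mb on 17.8% were called and 32.7% of the calls were higher in ubiquitylated H2A.Z. The share called was thus higher in the sparse part. Within that part the direction varied, and most of its calls higher in ubiquitylated H2A.Z came from its first 2 windows. From 20 to 25 Mb 21 of 26 calls were higher in ubiquitylated H2A.Z (80.8%), and from 25 to 30 Mb 14 of 22 (63.6%). The windows after these were lower. The share was 6 of 37 (16.2%) from 30 to 35 Mb and 2 of 7 (28.6%) from 35 to 40 Mb. Past the stretch it was 2 of 13 (15.4%), 2 of 15 (13.3%), 1 of 20 (5.00%) and 3 of 27 (11.1%) in the successive windows up to 65 Mb. The low share of the stretch was thus shared with its neighbours, and the window from 55 to 60 Mb was the lowest of the 515. The ratio of ubiquitylated to total peaks, 0.654 in the stretch, was likewise highest in the first 2 windows. In both windows next to the stretch it was nearer to the 0.932 of the whole chromosome. It was 1.03 in the rest of the sparse part, with 1.85 and 2.23 in the first 2 windows, 0.743 from 30 to 35 Mb and 1.05 from 35 to 40 Mb. Past the stretch it was 0.886, 0.882, 0.562 and 0.782, and from 65 Mb on 0.934.

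**Figure D5:**
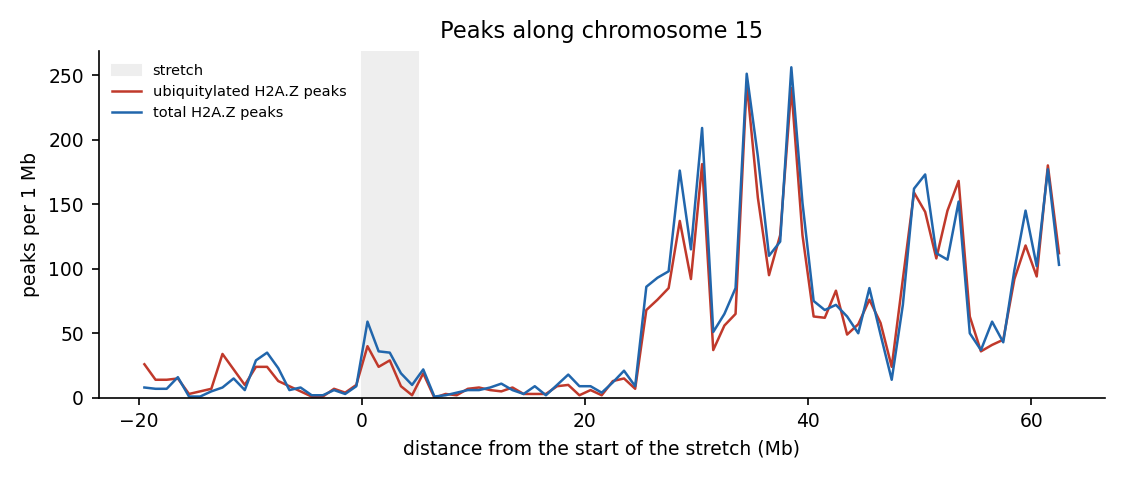
Lines give the number of ubiquitylated (red) and total H2A.Z peaks (blue) in each 1 Mb of chromosome 15 against the distance from the start of the stretch, which is shaded. Both lines stay low up to 25 Mb past the start, with 40 and 59 peaks in the first Mb of the stretch, and rise together beyond it.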

How the data were processed

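Per the submitters' processing notes, Bowtie, SAMtools, MACS2, edgeR and the build hg19 were used, with no version or setting named. For each H2A.Z form 1 peak list was deposited by the authors, with an irreproducible discovery rate (IDR, read like a q-value) of at most 0.05 per peak, and lists of regions with an FDR of at most 0.05 and a fold change of ubiquitylated over total H2A.Z. Deposited fold changes were taken to be log2, the scale edgeR writes; the files do not state the base or the normalization between libraries. Nothing in the labels says that replicates were separate cultures.

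Starts were raised by 1 base, peaks were merged where they overlapped or touched, and all 42574 differential regions equalled a merged region. Midpoints placed regions in windows and bins. Since the lists hold no counts, no model was fitted and no test was made. The merging was tested on simulated data. Regions were named by a rule: every call in the rarer direction, the 10 lowest FDR and 5 largest changes in the other, the 3 widest regions, the 3 lowest IDR per list, and the regions next to the limits. Clusters, series and pairs named beyond this were chosen after their values were seen. The members and this rule were chosen with earlier results of these data known. Of the genes named as background none was placed on hg19. The work was done in Python 3.11.15 with pandas 2.3.3, numpy 2.4.6, matplotlib 3.10.9 and scipy 1.17.1.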

Additional observations from a re-analysis of the deposited data

How the results depend on the processing

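No paired analysis was possible because the lists hold no value per library, and for that reason no replicate was left out; alternatives that need an hg19 genome were not run. Of 76 alternatives over 19 values, 55 left the value within its 95% binomial interval or within 1.5 times the count. Some of these could not move a value, since they dropped no region. Keeping only regions made of 1 peak left all 107 with total peaks alone and all 50 with ubiquitylated peaks alone. Requiring the whole region inside the window left all 208. Of 69 and 7 calls, an FDR under 0.01 left 44 higher in total H2A.Z and 7 in ubiquitylated. A log2 change of at least 1 left 20 and 0, so 0.00% of calls were then higher in ubiquitylated H2A.Z. Regions with both kinds of peak gave 10 and 1, with 21.6% called. Without clusters of 10 or more regions, an alternative chosen after seeing the data, 118 of 208 regions were left, 49.2% called, 64.4% with total peaks alone and 4 higher in ubiquitylated H2A.Z. With 50% of both peaks overlapping, 41.3% of ubiquitylated peaks were shared in place of 51.9%. Merging peaks up to 500 bp apart moved the median width to 481 bp (876 bp with both kinds of peak, 352 bp with total peaks alone, 511.5 bp when higher in total, 373.5 bp when not called). Regions made of 1 peak had medians of 317 bp and, when not called, 297.5 bp. Joining at 5 kb gave 12.8% called in clusters of 10 or more, and at 25 kb 85.7% among isolated regions, both added after seeing the data. Moving the window by 1 Mb either way kept the share of calls higher in ubiquitylated H2A.Z within its interval. The moved windows overlap most of the stretch. The intervals treat regions as independent, which they are not, and give no measure of the spread between samples.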
